A study of Mus musculus with 227 samples.

Results

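The cells described here carry the label mSSC, for mouse skeletal stem cell, and were chosen by that label alone: they number 37, in a series that also holds 26 CSP, 72 THY+ and 92 6C3+ single cells. Their source was the long bones of postnatal day 3 mice of strain BL6, with bone and bone marrow as the labelled tissue. They were double sorted, captured 1 by 1 on a microfluidic chip and sequenced with ERCC spike-in RNA. The mSSC gate was CD45-Ter119-Tie2-AlphaV+Thy-6C3-CD105-CD200+. As background served the cells with at least 1000 detected genes of the 3 other sorted populations, which share strain, age and tissue: 11 CSP cells (CD45-Ter119-Tie2-AlphaV+Thy-6C3-CD105+), 43 THY+ cells (CD45-Ter119-Tie2-AlphaV+Thy+6C3-CD105+) and 34 6C3+ cells (CD45-Ter119-AlphaV+Thy-6C3+CD105+, with no Tie2 term). The gate is the whole definition of each group: the labels name no animal, litter, pool or sort, so each population counts as 1 sample, no p-value is given, and spread between cells is not spread between animals.

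Growing long bones lengthen through cartilage. Chondrocytes of the resting zone near the end of the bone feed columns of dividing chondrocytes, which later enlarge into hypertrophic cells, and bone-forming osteoblasts follow them. Chondrocytes build a matrix of collagens II, IX and XI, the proteoglycan aggrecan and matrilins under control of the transcription factor SOX9, while osteoblasts and fibrous tissues rest on collagen I. In the sorting scheme used here mSSC stands above the CSP, THY+ and 6C3+ populations in the skeletal lineage.

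Levels are FPKM, in which fragments are counted per kilobase of transcript and scaled to depth, so genes can be compared per length, and detection means an FPKM of 1 or more. The mSSC-labelled cells had 1164 to 4390 detected genes, with a median of 2534. Their FPKM over all genes summed to between 251485 and 2041040. The median share of spike-ins in FPKM was 0.00117% for mSSC and 0.000945% for CSP cells, against 20.8% in THY+ and 18.9% in 6C3+ cells. By their index names, mSSC and CSP shared 1 set of indexes, and THY+ and 6C3+ had a set each. The names give no plate. Population and index set cannot be told apart in the comparisons with THY+ and 6C3+. No index pair was shared between populations, and 0 pairs of columns were identical. Depth in reads is unknown, so a value of 0 does not show absence. Parentheses after a share of cells hold its 95% interval (Clopper-Pearson, exact), for counting error between cells alone.

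Of the 37 cells, 4 stood apart. A list of 24 cartilage matrix genes was detected to 19 to 23 genes in 33 cells and to 2, 6, 8 and 11 genes in cells 26, 31, 32 and 21 (numbers only name cells). Cell 26 had Col2a1, Ucma, Cytl1 and Mgp all at 0 and 10 of 11 pericyte and smooth muscle genes, with Rgs5 at 12557, Acta2 at 4877, Tagln at 3387 and Higd1b at 1353 FPKM. The other 36 cells had 0 to 3 genes of that list. Cell 32 had 10 of 13 fibroblast and periosteal genes and 7 of 8 tendon genes. It had the bone and tendon collagen gene Col1a1 at 38184 and the periosteal protein gene Postn at 13154 FPKM. Of the tendon genes, Scx was at 5.77, Thbs4 at 32.8 and Tnmd at 0 FPKM in cell 32, while Tnmd was at 936 FPKM in cell 26. Cell 21 had 8 of 13 fibroblast and periosteal genes, Col1a1 at 10562, Postn at 4822 and Rgs5 at 2281 FPKM, and Col2a1 at 0. Cell 31 had the lowest FPKM total of the population, Col1a1 at 2379 and Col2a1 at 1.11 FPKM. Of a list of 9 endothelial genes, cell 26 had 2 and cell 10 had 1. The endothelial genes Pecam1, Cdh5, Kdr and Tek and the leukocyte gene Ptprc were at 0 in all 37 cells. Gene number did not set these cells apart, with 2620 to 3243 genes detected. The index row S516 held 3 of the 4 cells and 4 of the 37 in all; the part of the index row in this was not tested. Results that move are given with and without these 4 cells.

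**Figure D1:**
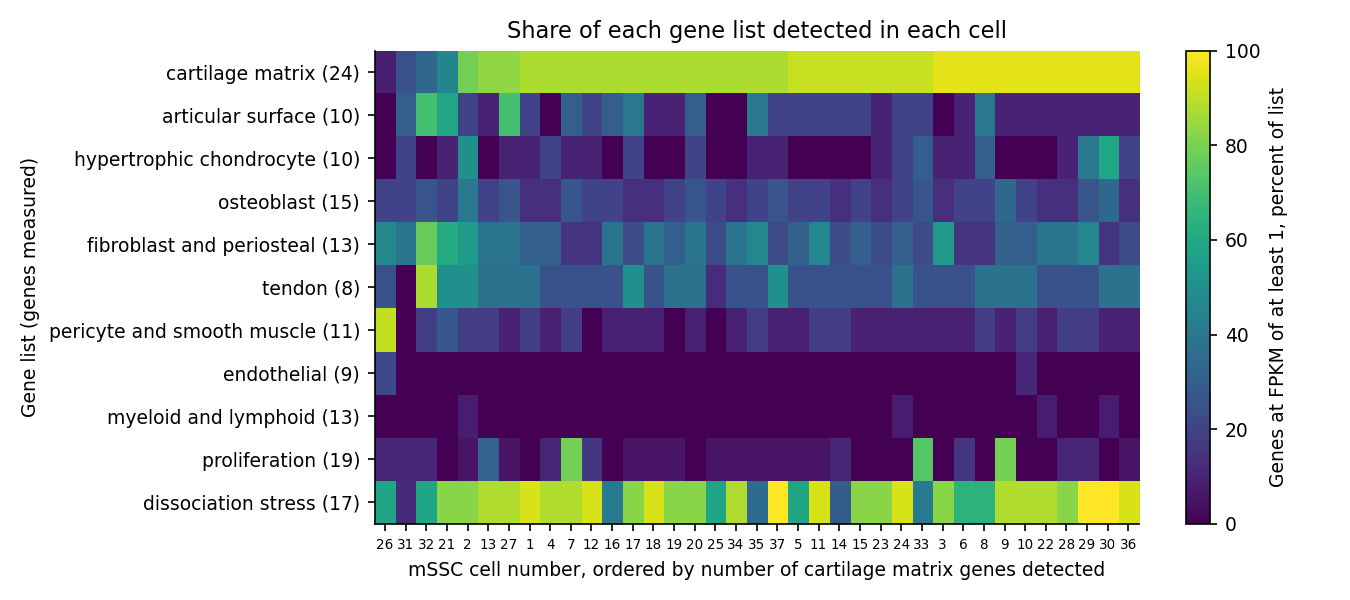
Share of each of 11 gene lists detected (FPKM of at least 1, percent, colour) in each of the 37 mSSC-labelled cells, ordered from left to right by number of cartilage matrix genes. Cells 26, 31, 32 and 21 at the left have 2 to 11 of 24 cartilage matrix genes; cell 26 has 10 of 11 pericyte and smooth muscle genes, and cells 7, 9 and 33 stand out in the proliferation row with 14 to 15 of 19 genes.

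The marker genes given with the population were Ucma, Cytl1, Mgp, Col2a1 and Cd200. The first 4 were detected in most cells at high levels, while Cd200 was not. Ucma, which encodes a secreted protein of the upper growth plate zone, was detected in 33 of 37 cells (89.2%, 74.6 to 97.0), at a lowest of 0, a median of 6697 and a highest of 44464 FPKM. The 33 cells are the same 33 that had 19 or more cartilage matrix genes, a list that includes Ucma itself, and their lowest Ucma value was 40.7 FPKM. Cytl1, which encodes a small secreted cytokine-like protein, was detected in 28 cells (75.7%, 58.8 to 88.2), at 0, 996 and 55846 FPKM. Ucma and Cytl1 were detected together in 27 cells, Ucma alone in 6, Cytl1 alone in 1 and neither in 3. Mgp, whose product restrains calcification, was detected in 36 cells (97.3%, 85.8 to 99.9), at 0, 5896 and 43351 FPKM. Col2a1, the main collagen of cartilage, was detected in 35 cells (94.6%, 81.8 to 99.3), at 0, 22488 and 80221 FPKM. Without the 4 cells Ucma, Mgp and Col2a1 were detected in 33 of 33 cells, and Col2a1 then ranged from 4693 to 80221 FPKM. Mgp and Col2a1 are also on the list by which the 4 cells were picked, which favours such a rise.

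In CSP, Ucma was detected in 7 of 11 cells, which is 63.6% (30.8 to 89.1). The THY+ value was 8 of 43, or 18.6% (8.39 to 33.4), and the 6C3+ value 8 of 34, or 23.5% (10.7 to 41.2). Cytl1 was detected in 2 of 11 CSP, 9 of 43 THY+ and 10 of 34 6C3+ cells. Those shares were 18.2% (2.28 to 51.8), 20.9% (upper bound 36) and 29.4% (15.1 to 47.5). Col2a1 was detected in 10 of 11, 30 of 43 and 27 of 34 cells, with median FPKM of 22906, 7.66 and 938. Mgp was broad, in 9 of 11, 37 of 43 and 31 of 34 cells, so its detection separates the populations little.

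Thy1, Enpep (6C3), Ptprc (CD45) and Tek (Tie2) were detected in 0 of 37 cells. By an approximate limit, 3 divided by the number of cells, this allows up to 8.11% of cells with a detected transcript each. It sets no limit on expression below detection. Itgav, which encodes the AlphaV integrin, was detected in 24 cells (64.9%, 47.5 to 79.8). Cd200, a positive gate for mSSC, was detected in 8 cells (21.6%, 9.83 to 38.2), at up to 1044 FPKM, and in 0 of the 4 cells with few cartilage genes. All 8 also had Ucma and Col2a1. CSP cells, whose gate does not name CD200, had it in 9 of 11 (81.8%, 48.2 to 97.7). Eng, which encodes CD105, a negative gate, was detected in 8 mSSC cells (21.6%, 9.83 to 38.2), up to 385 FPKM. The gate sorts on surface proteins while these values are transcripts, so the Cd200 and Eng counts do not show a conflict with the sort. The population is called by its label throughout.

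**Figure D2:**
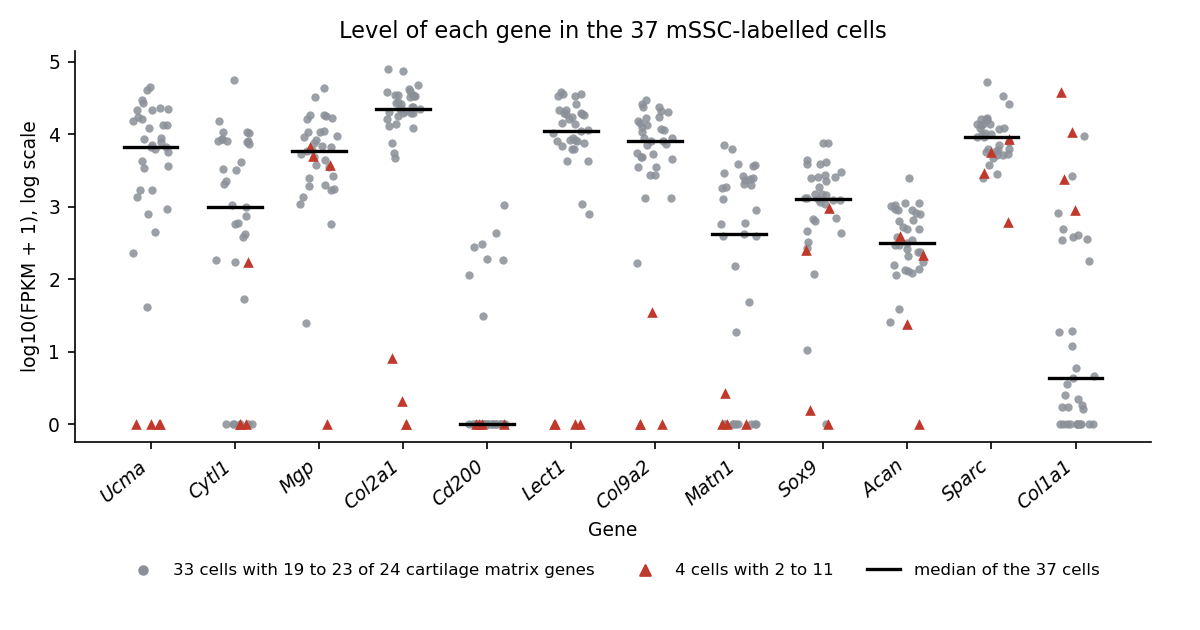
Level of 12 genes in each of the 37 mSSC-labelled cells as log10(FPKM + 1); grey points are the 33 cells with 19 to 23 of 24 cartilage matrix genes, red triangles the 4 cells with 2 to 11, and black bars the median of all 37 cells. The 4 cells lie at 0 for Ucma and Lect1, at 0 to 7.08 FPKM for Col2a1, at 0 for Col9a2 except cell 31 at 34.3 FPKM, and at 887 to 38184 FPKM for Col1a1.

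Ucma and Cytl1 are the markers that were high in mSSC against all 3 other populations, so the reference sequence before their starts is shown. Both are the 250 bases upstream of the RefSeq transcript start on the plus strand of GRCm38.p6, read 5′ to 3′; Ucma spans chr2:4975872-4976121 and Cytl1 chr5:37735269-37735518. Capitals mark matches on either strand to any of 3 motifs: the TATA box, searched as TATAAA, the CCAAT box, searched by those letters, and a core recognised by SOX proteins, searched as ACAATG.
Ucma: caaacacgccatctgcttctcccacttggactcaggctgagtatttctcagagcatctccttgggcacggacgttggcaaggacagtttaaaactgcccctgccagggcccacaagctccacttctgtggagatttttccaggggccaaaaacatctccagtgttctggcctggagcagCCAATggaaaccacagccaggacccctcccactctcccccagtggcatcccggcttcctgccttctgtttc
Cytl1: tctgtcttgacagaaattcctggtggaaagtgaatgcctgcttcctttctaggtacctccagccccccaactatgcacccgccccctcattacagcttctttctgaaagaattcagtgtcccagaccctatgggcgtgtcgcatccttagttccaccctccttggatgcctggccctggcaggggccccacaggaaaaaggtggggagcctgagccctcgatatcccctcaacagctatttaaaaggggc
The Ucma stretch held 1 match, CCAAT at position -71 counted from -1 at its last base, and the Cytl1 stretch held 0. Of 24 cartilage matrix genes 19 had such a stretch in the RefSeq table: 5 held CCAAT against 34.5% of 27025 stretches, 2 held the TATA box against 13% and 1 held the SOX core against 11%. A match is a description of the letters and not a shown binding site. In mm10 the Ucma gene lies on chromosome 2 (4976122 to 4985748, plus strand), Cytl1 on chromosome 5 (37735519 to 37739820, plus strand), Col2a1 on chromosome 15 (97975602 to 98004695, minus strand), Mgp on chromosome 6 (136872435 to 136875823, minus strand) and Cd200 on chromosome 16 (45382135 to 45409053, minus strand).

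Ribosomal protein genes took 5.43% to 23.2% of FPKM per cell, with a median of 13%, and are left out of the rankings that follow. The 10 highest genes of each cell took 9.30% to 22.6% of its FPKM (median 15.3%), and Col2a1 alone a median of 2.50% and at most 8.67%. The 20 genes with the highest median FPKM held 7 of the cartilage matrix list. These were Col2a1, Lect1 (chondromodulin, an angiogenesis inhibitor of cartilage, 11046), Col9a2 (8007), Ucma, Mgp, Mia (3077) and Col9a1 (2941). Bgn (biglycan, 2742) is a matrix proteoglycan outside that list. Sparc, a collagen-binding glycoprotein of bone and cartilage, had a median of 9059 and was never under 619 FPKM. Itm2a, a membrane protein gene of chondrogenic tissue, had a median of 7844, and Sdc4, which encodes the heparan sulphate proteoglycan syndecan-4, had a median of 5944. The imprinted genes H19 and Igf2 had medians of 5564 and 2793 FPKM and were detected in all 37 cells. Actb, Eef1a1, Ubb, Hspa8, Fth1 and Cox6a1, genes of the cytoskeleton, translation, protein turnover, iron storage and respiration, were also among the 20.

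Of 24388 genes, 0.541% were detected in all 37 cells, 1.14% in at least 90% of cells and 1463 in at least 50%. A further 4711 were in some but under 10% of cells, 2207 of them in 1 cell, and 12437 in none. The genes found in every cell included 67 of 99 ribosomal protein genes. Apart from them, the genes that stayed highest in their lowest cell were Eef1a1 (2053 FPKM), Ubb (1891), Actb (1330), Sparc (619), Igf2 (482) and Fth1 (324), followed by Malat1 (293), Ptma, Kdelr2, Gnb2l1, Npm1, Sod1, Mrfap1, Gnb1 and Bgn. Kdelr2 encodes a receptor that returns proteins to the endoplasmic reticulum, and its value in the lowest cell was 193.5 FPKM. Sparc and Igf2 were thus present in the 4 cells with few cartilage genes as well.

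The collagens of cartilage were each detected in 33 to 36 of the 37 cells. Col11a1 was detected in 36 of 37 cells (median 1861), Col11a2 in 35 (452), Col9a3 in 35 (1069), Col9a2 in 34, Col9a1 in 33 and Col27a1 in 33 (141.2). Aggrecan, encoded by Acan, was in 36 cells (median 315, highest 2455), and its link protein gene Hapln1 in 34 (439). Lect1, Mia and Chad (chondroadherin, median 2390) were in 33 cells each, the same number as Ucma. Small leucine-rich proteoglycan genes were less even: Fmod (fibromodulin) was in 34 cells and Prelp in 32, while Epyc (epiphycan) was in 19 (51.4%, 34.4 to 68.1). Matrilin genes split too, with Matn3 in 32 cells (median 659) and Matn1 in 25 (67.6%, 50.2 to 82; median 415, highest 7016). Of the list, 23 of 24 genes were detected in at least 50% of cells and 9 in at least 90%; the exception, Cilp2, was in 2 cells.

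The list's summed share of FPKM ran from 0.0117% to 17.6% per cell, with a median of 11.2%. The median was 11% in CSP, 2.73% in 6C3+ and 0.917% in THY+ cells. Per cell a median of 21 of 24 list genes was detected in mSSC and also in CSP, 14.5 in 6C3+ and 8 in THY+ cells. In mSSC the number of detected genes and the number of cartilage matrix genes had a Spearman rho of 0.0018 over the 37 cells, given as a description of these libraries.

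Among transcription factors of cartilage, Sox9, Nfia and Nfib were detected in at least 90% of cells. Sox9, the main regulator of chondrocyte genes, was in 34 cells, at 0, 1270 and 7598 FPKM. Nfia and Nfib, nuclear factor I genes, were in 36 and 34 cells with medians of 126.5 and 97.4 FPKM, and Nfix was in 29. Without the 4 cells with few cartilage genes, Sox9 and Nfia were each in 32 and Nfib in 30 of 33 cells. Sox5 and Sox6, partners of SOX9, were in 21 and 22 cells, and Sox9, Sox5 and Sox6 were found together in 13. Hoxa10, a limb patterning gene, was in 17 cells and Hoxa11 in 3. Foxa3 was in 17 and Foxa2 in 6 cells, Runx1 in 17, and Runx2, which drives hypertrophy and osteoblast formation, in 5. Of the 30 genes in this list 28 were detected in some cell, 9 in at least 50% and 3 in at least 90%. Cells had 5 to 17 of them, with a median of 10, the same median as THY+ and 6C3+ cells and 2 below CSP.

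Most genes that define hypertrophic chondrocytes and osteoblasts were detected in few cells. Ihh encodes the hedgehog ligand made by prehypertrophic chondrocytes. It was found in 2 cells (5.41%, 0.661 to 18.2), at 6.17 and 11.1 FPKM. Col10a1, the collagen of hypertrophic cartilage, was in 3 (8.11%, 1.70 to 21.9), up to 14.9 FPKM. That highest value was in cell 21, among the 4 cells with few cartilage genes, while cells 12 and 20 had 5.17 and 1.66 FPKM. Pth1r, the receptor for parathyroid hormone-related peptide, was in 10 cells, up to 1046 FPKM, among them both Ihh cells. Panx3 was in 4 cells and Mmp13, Alpl and Ibsp in 0. Cell 30 had the most hypertrophic list genes, 6 of 10, with Ihh, Pth1r and Sp7 at 76.8 FPKM. Of the 15-gene osteoblast list the cells had 2 to 6 genes with a median of 3, as in THY+ and 6C3+ cells, against 5 in CSP. These were mainly Sparc (37 cells), Col1a2 (36) and Col1a1 (22), which other connective tissue cells also express. Any of the osteoblast genes Sp7, Bglap, Bglap2, Ibsp, Dmp1, Phex and Mepe was detected in 2 of 37 cells (5.41%, 0.661 to 18.2), through Sp7, in cells with 21 and 23 cartilage matrix genes; the value was 1 at a detection limit of 10 FPKM. In CSP cells the same count was 5 of 11 (45.5%, 16.7 to 76.6), in THY+ 2 of 43 and in 6C3+ 3 of 34. Those cells had 21 to 23 cartilage matrix genes in CSP, 9 to 21 in THY+ and 6 to 19 in 6C3+.

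Col1a1, of collagen I, and Col2a1, of collagen II, were found in the same cell in 20 of 37 cases. Col2a1 alone was found in 15 cells and Col1a1 alone in 2, cells 21 and 26, and no cell lacked both. The median of Col1a1 over the 37 cells was 3.29 FPKM, 16 cells had at least 10, and 5 had at least 1000. Of those 5, cells 21, 31 and 32 were among the 4 with few cartilage genes, while cell 11 (9565) and cell 2 (2637) had 22 and 19 cartilage matrix genes. At a limit of 10 FPKM for both genes the number of cells with both was 12. In the background both were found in 0 of 11 CSP, 30 of 43 THY+ and 22 of 34 6C3+ cells. Col1a2, the partner chain, was in 36 mSSC cells (median 783) and 10 of 11 CSP cells. The counts above therefore hold for Col1a1 and not for collagen I transcripts as a whole.

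Lists of other cell types were detected in part. Fibroblast and periosteal genes numbered 2 to 10 of 13 per cell (median 4, against 7 in THY+ and in 6C3+), led by Col3a1 in 31 cells, Lum in 27, Dcn in 26 and Col6a3 in 26. Tendon genes numbered 0 to 7 of 8, mostly Fmod and Egr1, which cartilage and stressed cells also express; Scx, Tnmd and Thbs4 were in 2 cells each. Marrow stroma genes numbered 0 to 4 of 10, with Cxcl12 in 3 cells and Lepr and Kitl in 0. Of the adipocyte list, Pparg was in 2 cells, at 1.2 FPKM or less, Fabp4 in 7, and Adipoq, Plin1, Cebpa and Cfd in 0; Cebpb, which is broadly expressed, was in 26. Pericyte genes other than Cspg4 (31 cells) were in 1 to 8 cells each, and Rgs5 passed 1000 FPKM in cells 21 and 26 alone. Endothelial genes were in 2 cells, with 7 of 9 at 0, myeloid and lymphoid genes in 4 cells, at most 1 gene each, with 9 of 13 at 0, and erythroid genes in 12 cells, mainly the transferrin receptor gene Tfrc (10 cells), with 4 of 7 at 0. S100b, which chondrocytes share with Schwann cells, was in 30 cells, while Sox10 and Mbp were in 0.

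The genes that varied most between mSSC cells at a given level were found by comparing each gene's SD of log2(FPKM + 1) with the median SD of the genes nearest in mean, among genes in 20% to 80% of cells. The 20 genes furthest above that median had SDs of 4.44 to 5.30. Cartilage matrix and secreted genes among them were Cytl1 (SD 5.29), Epyc (5.30), C1qtnf3 (5.05), Matn1 (5.14), Kazald1 (4.44) and Dcn (decorin, 4.91). C1qtnf3, a C1q and tumour necrosis factor-related gene of growth plate cartilage, was in 27 cells, at 0, 1040 and 6813 FPKM. Kazald1, which encodes a secreted protein with a Kazal protease inhibitor domain, was in 29 cells with a median of 488 FPKM. Stress and growth arrest genes were Atf3, Ier3, Nupr1, Gadd45g, Rcan1 and the metallothionein gene Mt1, which reached 26514 FPKM with a median of 307. Penk, which encodes the opioid precursor proenkephalin, was in 27 cells with a median of 278.6 FPKM; its highest value, 54962, was in cell 21, and the highest in the 33 other cells was 8139. The rest were S100a6, S100a10, Crip1, Clu, Dhrs3, Ndufa4l2 and Col1a1. Without the 4 cells 15 of the 20 were again among the 20 widest, and Col1a1, Crip1, Ndufa4l2, S100a10 and S100a6 were not.

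**Figure D3:**
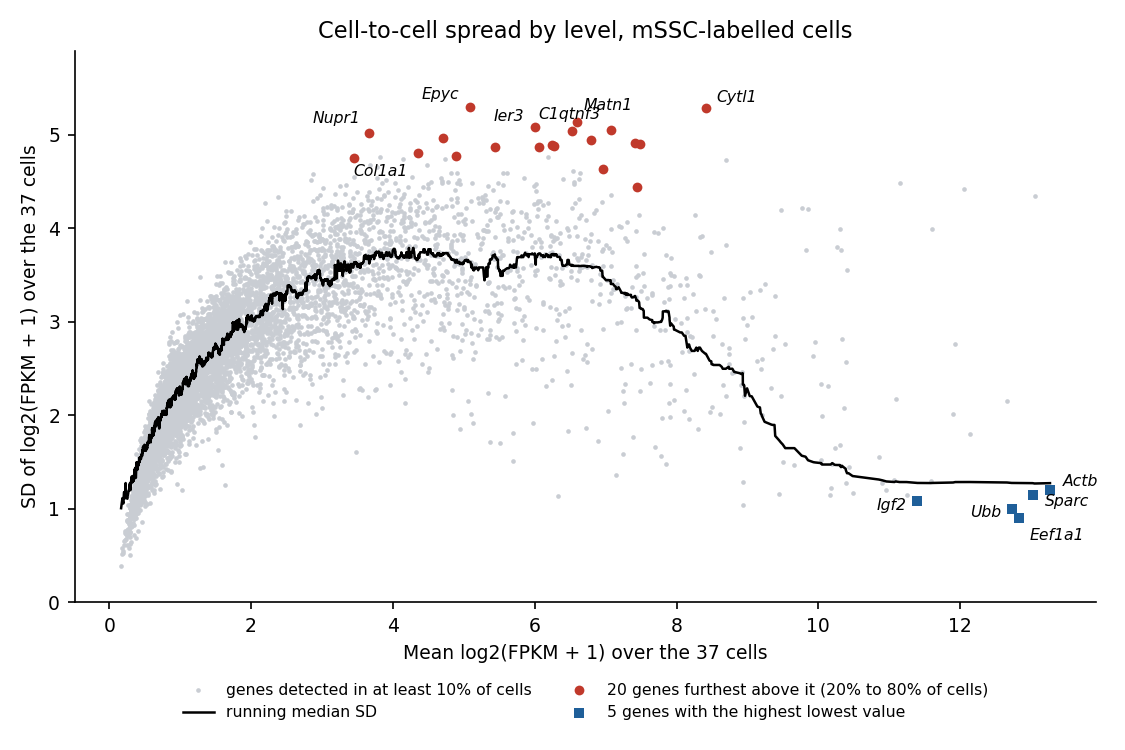
SD against mean of log2(FPKM + 1) over the 37 mSSC-labelled cells, 1 point per gene detected in at least 10% of cells; the black line is the running median SD, red points the 20 genes furthest above it among genes in 20% to 80% of cells, and blue squares the 5 genes with the highest lowest value. Cytl1 and Epyc have the widest spread of the red genes (SD 5.29 and 5.30), and Eef1a1 an SD of 0.91.

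Prg4 and Wif1 were detected in sets of cells that overlapped in part. Whether the overlap passes what their shares alone would give was not tested. Prg4 encodes lubricin, the lubricant of the joint surface, and Wif1 a secreted inhibitor of WNT ligands. Prg4 was detected in 19 cells (51.4%, 34.4 to 68.1), at 0, 2.35 and 5650 FPKM, and Wif1 in 15 (40.5%, 24.8 to 57.9), at 0, 0 and 7272 FPKM. They were found together in 11 cells, Prg4 alone in 8, Wif1 alone in 4 and neither in 14. Prg4 reached 1000 FPKM in 5 cells, 16, 17, 18, 19 and 27, and each of these had Wif1, at 244 to 7272 FPKM, with Col2a1 at 4693 to 80221 FPKM. Of the 5 cells 4 carry the index of column N723, whose 5 mSSC cells all had Prg4 and Wif1, against 14 and 10 of the 32 others; the 3 CSP cells of that column, of which 1 had at least 1000 genes, had Prg4 in 0 and Wif1 in 1. Without that column the 2 genes were together in 6 cells, and the part of the index column was not tested. The background values were 1 of 11 CSP, 6 of 43 THY+ and 21 of 34 6C3+ cells with both. Other genes of the articular surface list were scarce: Erg was in 9 cells, Dkk3 in 7 and Gdf5 in 2.

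**Figure D4:**
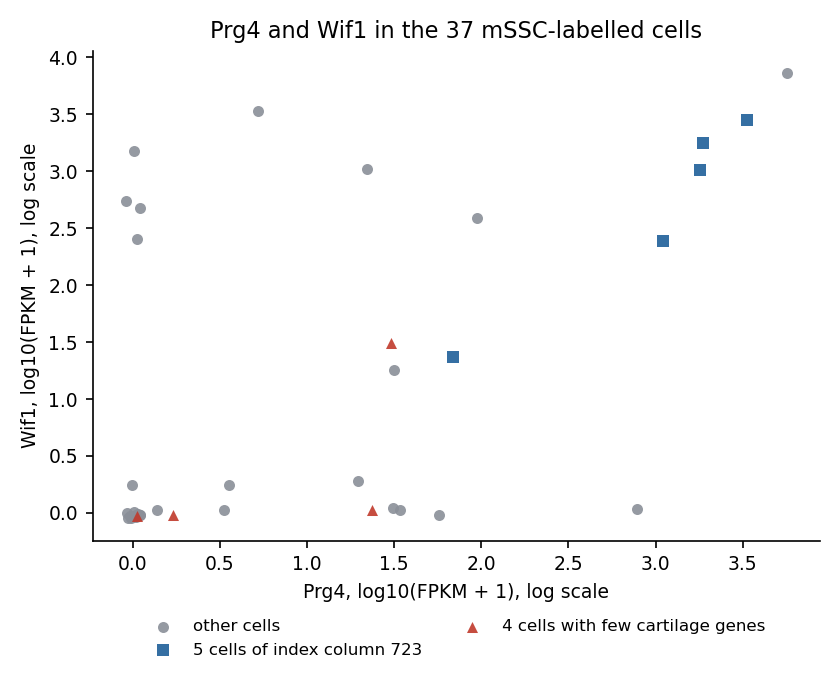
Prg4 against Wif1 in the 37 mSSC-labelled cells as log10(FPKM + 1); blue squares are the 5 cells of index column N723, red triangles the 4 cells with 2 to 11 cartilage matrix genes, and points near 0 are shifted slightly so that they do not cover each other. Of the 5 cells with Prg4 of at least 1000 FPKM, 4 are blue squares.

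Signals that shape growing cartilage were read from lists of ligands, receptors and targets. In the BMP pathway, where ligands act through serine kinase receptors on SMAD proteins, the ligand gene Bmp2 was in 19 cells (median 1.06, highest 1027 FPKM), Bmp5 in 11 and Bmp4 in 3. The receptor genes Bmpr1a and Bmpr2 were in 20 and 14 cells. The target genes Id1, Id2 and Id3 were in 26, 34 and 35 cells, with medians of 462, 523 and 946 FPKM, and all 3 were in 22 cells. The antagonist genes Nog, Grem1 and Chrd were in 5, 1 and 2. Of 30 genes in this list, 28 were detected in some cell and 6 in at least 50%.

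In the WNT list the receptor gene Lgr4 (33 cells), the effector Tcf7l2 (32) and beta-catenin, Ctnnb1 (30), were widespread. Ligand genes were nearly absent, with Wnt4 and Wnt5a in 3 cells each and Wnt5b and Wnt11 in 0. The feedback target Axin2 was in 1 cell and Lgr5 in 0. Secreted antagonists were patchy: Wif1, Frzb in 13 cells, Sfrp1 in 12 and Sfrp5 in 5, and any of 8 such genes was in 30 cells. The hedgehog targets Gli1, Ptch1 and Hhip were in 9, 6 and 9 cells, any of them in 15 (40.5%, 24.8 to 57.9), and the shares in the background were 36.4% of CSP, 41.9% of THY+ and 47.1% of 6C3+ cells. Pthlh, the gene of parathyroid hormone-related peptide in the resting zone, was in 2 cells. In the TGF beta list the receptor genes Tgfbr2 and Tgfbr3 were in 14 and 16 cells and Tgfbi in 25, the sole gene of 16 in at least 50%.

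FGF receptor genes were frequent: Fgfr1 was in 26 cells, Fgfr2 in 22 and Fgfr3, which restrains chondrocyte growth, in 21, with any in 35 and all 3 in 10. Spry2, a feedback inhibitor of FGF signalling, was in 35 cells with a median of 512 FPKM. Vegfa was in 10 cells and Kdr in 0. The Notch receptor gene Notch2 was in 34 cells (median 42.2) and the target Hes1 in 21, while Notch1 was in 3 and Notch3 in 1, cell 26. Among growth genes under imprinting, Igf2 and H19 were in 37 cells, Igf2r, Cdkn1c and Meg3 in 36, Peg3, Grb10 and Plagl1 in 35 and Dlk1 in 33. Cdkn1c, an inhibitor of the cell cycle, had a median of 2185 FPKM. Igf1 was in 2 cells and Igfbp2 to Igfbp6 in 1 to 6 each, while Igfbp7 was in 32.

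Few cells carried a proliferation signature. Of 19 proliferation genes, cells 7 and 9 had 15 and cell 33 had 14, and the other 34 cells had at most 6. In these 3 cells Cdk1 was at 959, 280 and 1125 FPKM and Top2a at 1198, 646 and 512, and they had 21, 23 and 22 cartilage matrix genes with Col2a1 at 13151 to 26363 FPKM. The share with 10 or more such genes was 8.11% (1.70 to 21.9), against 0 of 11 CSP, 4 of 43 THY+ and 4 of 34 6C3+ cells. Dissociation stress genes, which rise during tissue digestion, were in contrast common: all 17 were in at least 50% of cells, with Fos in 34 (median 2301), Egr1 in 32 (median 1581) and Btg2 in 30. Per cell 2 to 17 of the 17 were detected, with a median of 14, and cell 31 had the fewest.

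Xist, the noncoding RNA of the inactive X chromosome, was detected without any of 4 Y-linked genes in 21 mSSC cells, Y-linked genes without Xist in 5, both in 0 and neither in 11. In CSP cells, from the same index set, the counts were 1, 8, 0 and 2 of 11. The labels give no sex, and whether it bears on the other differences between mSSC and CSP was not tested.

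Against each background population, genes were counted where mean log2(FPKM + 1) differed by at least 4 and the gene was detected in at least 50% of the higher population. All 3 comparisons share the mSSC cells, so their calls are not independent. Over CSP, mSSC was higher for 7 of 1463 genes (0.478%) and lower for 18 of 2086 (0.863%). Over THY+, mSSC was higher for 43 of 1463 genes (2.94%) and lower for 15 of 1598 (0.939%). Over 6C3+, mSSC was higher for 29 of 1463 genes (1.98%) and lower for 3 of 1705 (0.176%).

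The genes higher than in CSP were Cytl1 (6.89), Kazald1 (5.22), Ucma (5.03), Fcgrt (4.87), Nfib (4.42), Meg3 (4.13) and Cebpb (4.13), as differences of mean log2 level. Fcgrt, the gene of the neonatal Fc receptor, was in 22 mSSC and 0 of 11 CSP cells, and Nfib in 34 of 37 against 3 of 11. Lower were Pth1r (-6.87), Ppa1 (-6.34), Panx3 (-5.79), Smpd3 (-5.38), Ihh (-5.32), Sgms2 (-4.97) and S100a1 (-4.50). With the log2 taken after averaging FPKM, a setting that weights the cells with the highest values, Cytl1 was at 1.85, Kazald1 at 2.48, Ucma at 3.15, Nfib at 3.05 and Pth1r at -3.53, all under 4 in size. The cartilage matrix list had 2 of 24 genes past 4 and a median of -0.54, beside -0.22 over all genes with a mean log2 level above 1. Without the 4 cells that list's median was 0.36, but they were picked for few genes of this same list, which favours such a rise. The hypertrophic list had 4 of 10 genes past -4 and a median of -3.62.

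Over THY+ and 6C3+ cells the cartilage matrix list made up much of what was higher. In it 19 of 24 genes were past 4 over THY+ (median difference 5.84) and 16 over 6C3+ (5.10), beside -0.12 and 0.34 over all genes with a mean log2 level above 1. The highest over THY+ were Lect1 (9.91), Ucma (9.50), Col9a2 (8.96), Chad (8.49), Mia (8.29), Col9a1 (8.17), Col2a1 (7.78) and Scrg1 (7.61), a gene induced in cartilage formation. Over 6C3+ they were Ucma (9.33), Lect1 (7.45), Matn3 (6.97), Mia (6.88), Matn1 (6.60), Col9a3 (6.38) and Col9a2 (6.33). Lower than in THY+ were Lgals1 (-7.67), Col1a1 (-7.16), Postn (-7.04), the actin-binding gene Tmsb4x (-6.65), Crip1 (-5.89), Col4a1 (-5.83) and the caveolae gene Cav1 (-5.23). Lower than in 6C3+ were Col1a1 (-5.43), Lgals1 (-5.30) and the matrilin gene Matn2 (-4.53). With the log2 taken after averaging, Lgals1 (-3.20), Col1a1 (-2.92), Postn (-2.42), Col2a1 (3.30) and Cytl1 (3.30) were under 4 in size against THY+, while Ucma (4.86), Lect1 (4.19), Col9a2 (4.92) and Matn1 (10.27) were not. Against 6C3+ the same setting gave Col1a1 -2.30, Lgals1 -1.34 and Ucma 6.19. Dissociation stress genes had medians of 2.07 over THY+ and 2.30 over 6C3+, with 2 and 1 of 17 past 4. Without the 4 cells the counts lower than in THY+ and 6C3+ were 23 and 6, among them the 15 and 3 genes above. With FPKM rescaled to the same total per cell, higher calls made up 51.4% of calls over 6C3+ in place of 90.6%, 63.2% over THY+ in place of 74.1% and 13.9% over CSP in place of 28%, and the median over genes above 1 for 6C3+ was -0.37 in place of 0.34.

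**Figure D5:**
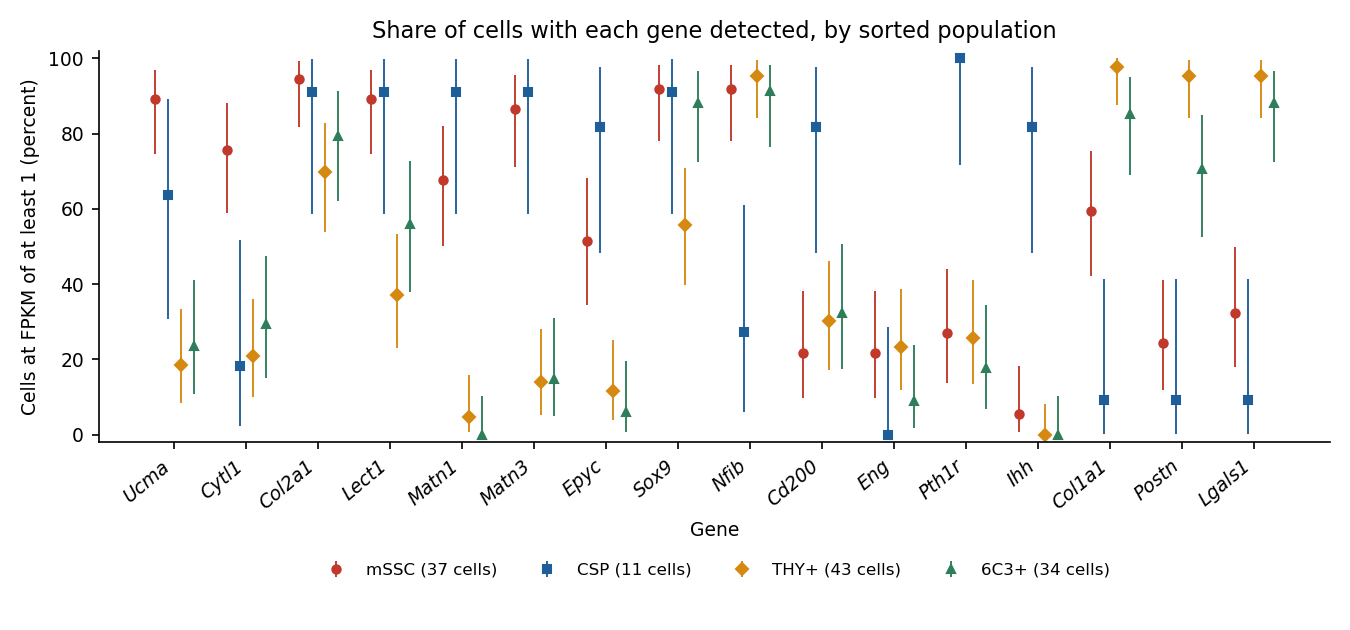
Share of cells with each of 16 genes detected (FPKM of at least 1, percent) in mSSC, CSP, THY+ and 6C3+ cells with at least 1000 detected genes; bars are exact 95% intervals for counting error between cells. Ucma and Cytl1 are highest in mSSC, Pth1r and Ihh in CSP, and Col1a1, Postn and Lgals1 in THY+ and 6C3+.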

How the data were processed

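The values used were FPKM as deposited by the authors, in 1 table of 24388 genes and 92 spike-ins for each of 227 cells made, per the labels' protocols, with the Fluidigm C1, SMARTer and Nextera XT kits. The build mm10 and SAMtools are named in the submitters' processing notes, per the labels; which aligner, annotation and FPKM program were used is not given in the sources used here. Spike-ins were dropped, 0 columns were of no sample, and depth is unknown. Detection was FPKM of at least 1, and differences are of mean log2(FPKM + 1), with a pseudocount of 1. The table holds 0 mitochondrial genes. Cnmd and Snorc were found as Lect1 and 3110079O15Rik, and Ly76 and Hbb-bt were not matched. The mSSC cells were the columns so labelled, without doublet calling, since the labels state that imaged single live cells were kept.

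Named genes were the 20 with the highest median, the 15 in all cells with the highest lowest value, the 20 with the widest spread, the 12 highest and 12 lowest differences per comparison, up to 6 members of each list by share of cells, transcription factors of the lists in at least 90% of cells, markers and sort antigens; unnamed gene models, pseudogenes, ribosomal protein and sex-linked genes were left out of rankings. Some genes that this rule names are not reported here. Any other gene was picked with its values in view. The members and all 31 lists were chosen with earlier results of these data known. The spread of each gene was set against the running median of 101 genes. The calls and the spread ranking were tested on simulated data, and the outcome is not given here. How often the reported calls are wrong was not tested. Coordinates are from GENCODE for GRCm38 (mm10) and promoters from RefSeq. The software was numpy 2.4.6, scipy 1.17.1, pandas 2.3.3 and matplotlib 3.10.9 on Python 3.11.15. The settings varied were the pseudocount (0.1 or 10), a rescaling of each cell to 1000000, taking the log2 after averaging, a filter at a mean of 1 FPKM, the use of all cells of the other populations, detection above 0 or at 10, and cells without the 10% with fewest genes. Leaving out the 4 cells, leaving out index column N723 and the other detection limits for Prg4 with Wif1, for proliferation and for single genes other than the markers were added after seeing the data.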

Additional observations from a re-analysis of the deposited data

Results flagged for a closer look

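Cells under 1000 detected genes of the other populations are outside the background used in the report, apart from the CSP cells of index column N723 and the alternative with all cells. Several mSSC marker genes were detected in them in a larger share of cells than the limit that a count of 0 allows, taken as 3 divided by the number of cells. The intervals for Ucma and Cytl1 include that limit. Cells of these populations with at least 1000 genes also had these genes, so passing the limit shows no difference between the 2 kinds of cells. In the 15 CSP cells under 1000 genes, Ucma was detected in 33.3% and Cytl1 in 33.3% (11.8 to 61.6 each) and Col2a1 in 93.3% (68.1 to 99.8), against a limit of 20% for 0 cells. In the 29 such THY+ cells, Cytl1 was detected in 20.7% (7.99 to 39.7) and Col2a1 in 58.6% (38.9 to 76.5), against a limit of 10.3%. In the 58 such 6C3+ cells, Cytl1 was detected in 8.62% (2.86 to 19) and Col2a1 in 60.3% (46.6 to 73), against a limit of 5.17%. Ucma was in 1 of 29 and 1 of 58 of them, under those limits.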

How the results depend on the processing

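Results were recomputed with 1 choice changed at a time. Of the alternative values of the main results 47 stayed within their error or within 1.5 times of the share of genes called and 31 moved, or 33 with calls taken as numbers of genes; these values have no sign. For single-gene differences of at least 4, 21 alternative values were under 4, and 17 of 315 values over all single-gene differences changed sign. Without the 4 cells with few cartilage genes, the shares of cells with Ucma, Mgp and Col2a1 were 100% each. These genes are on the list by which the 4 cells were picked. Genes lower than in THY+ and 6C3+ were then 1.44% and 0.352% of those tested. With detection at 10 FPKM, cells with Col2a1 and Col1a1 numbered 12 and cells with an osteoblast gene 1. The values that follow are percentages of tested genes called higher, then lower, in mSSC, and the numbers of genes are named as such. With a pseudocount of 0.1 they were 1.57% and 4.99% against CSP, 5.81% and 3.38% against THY+ and 4.44% and 1.06% against 6C3+. With a pseudocount of 10 they were 0.137% and 0.0959%, 1.03% and 0.375%, and 0.889% and 0.0587%. With FPKM rescaled to a common total, 1.40% were lower than in CSP, and 1.29% were higher and 0.918% lower than in 6C3+. With the log2 taken after averaging, 0.957% and 0.479% were called against CSP and 0.752% and 0.501% against THY+, and 0% were lower than in 6C3+. With all cells of the other population, 20.5%, 14.5% and 31.9% were higher than in CSP, THY+ and 6C3+, or 300, 212 and 466 genes, and 2, 4 and 0 genes were lower, in place of 18, 15 and 3; that population then includes its cells under 1000 genes. The cause of the other shifts was not tested. With the log2 taken after averaging, the genes still called were 2 of 7 higher and 3 of 18 lower than in CSP, 8 of 43 and 1 of 15 for THY+, and 15 of 29 and 0 of 3 for 6C3+. Higher and lower calls against CSP were then 14 and 10 in place of 7 and 18, and the median over genes above 1 was 0.54 in place of -0.22, or 1.14 with all CSP cells. No paired analysis was possible because no result comes from a test and each cell is a library of its own. Depth is unknown, so a gene listed at 0 may lie below detection.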

Other observations

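Genes tied to the resting zone of the growth plate, where slowly dividing chondrocytes lie, were detected in part: the mSSC-labelled cells had 0 to 6 of 10, with a median of 3, against medians of 4 in CSP, 2 in THY+ and 3 in 6C3+ cells. Fgfr3 was in 21 cells, Gas1 and Nt5e, which encodes CD73, in 17 each, Clu in 15, and Sfrp5, Apoe, Spon1 and Pthlh in 2 to 5 each. Of 6 osteoclast genes, the protease gene Ctsk was in 16 cells, Acp5 in 1 and the other 4 in 0. Of 8 skeletal muscle genes, Acta1 was in 19 cells, at no more than 20.3 FPKM, and Myod1, Myog, Pax7 and Myf5 were in 0.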
